A study of Rattus norvegicus with 21 samples.

Results

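The 6 genes of the liver's sterol sensor described here, Srebf2, Scap, Insig1, Insig2, Stard4 and Mylip, were followed through 21 rat liver RNA-seq libraries. Members were matched by symbol and were chosen with earlier results of these data known. All 6 were found in both deposited tables, each with 1 row under its symbol and the same Ensembl identifier in both, out of 32623 genes. There were 7 groups of 3 libraries. Wistar livers were taken at day 23 (d23) and day 63 (d63) from control and early weaned rats. Sprague Dawley livers were taken at day 211 (d211) from control rats, from early weaned rats, and from early weaned rats whose drinking water held 1.5% leucine, a branched-chain amino acid. Early weaning means separating pups from the dam's milk sooner than is normal. Sex, the day of weaning and the number of animals behind a library are not given in the labels used here. P-values therefore measure the spread between these samples, which may be technical. Strain and the oldest age are the same split, and each strain has its own table, so no test was made across d63 and d211.

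SREBP-2, the protein made from Srebf2, is a transcription factor that is made as a protein of the endoplasmic reticulum membrane, where it is bound to its escort, SCAP. When membrane cholesterol is plentiful, SCAP binds an INSIG protein and the complex stays in place. When cholesterol falls, SCAP carries SREBP-2 to the Golgi, where it is cut and released to switch on genes of cholesterol synthesis and uptake. Insig1 is itself an SREBP target, and the liver makes Insig2 from its own promoters. STARD4 carries cholesterol between membranes and is also an SREBP-2 target. MYLIP, also called IDOL, is a ubiquitin ligase that marks the LDL receptor for degradation and is switched on by the sterol receptor LXR.

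The tables place Srebf2 (ENSRNOG00000007400) on chromosome 7 at 123381077 to 123438603, Scap (ENSRNOG00000020853) on chromosome 8 at 118570503 to 118628651, and Insig1 (ENSRNOG00000006859) on chromosome 4 at 342302 to 350515. They place Insig2 (ENSRNOG00000002478) on chromosome 13 at 37266312 to 37287458, Stard4 (ENSRNOG00000020468) on chromosome 18 at 25984638 to 25997555, and Mylip (ENSRNOG00000017579) on chromosome 17 at 19682040 to 19703681. All are listed as protein-coding. The coordinates carry no build name, and values are per whole gene, not per exon.

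RefSeq promoter windows on the GRCr8 build, 250 bases before to 50 after a start site, were matched by symbol for 5 of the 6 members. Stretches from 4 of them are shown to set the SREBP arm of the sensor (Insig1, Srebf2, Scap) beside the LDL receptor arm (Mylip). Each is written 5′ to 3′ on its gene's strand, with CCAAT boxes (read as ATTGG on the other strand) and E-boxes (CACGTG) in capitals.
Insig1, chr4:8057813-8058019, minus strand: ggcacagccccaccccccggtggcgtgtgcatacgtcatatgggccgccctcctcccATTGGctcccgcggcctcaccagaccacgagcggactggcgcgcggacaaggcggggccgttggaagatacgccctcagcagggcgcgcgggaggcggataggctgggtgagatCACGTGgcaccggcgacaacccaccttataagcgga
Srebf2, chr7:115543166-115543195, plus strand: cttcgcgctccgATTGGctaatgcaggcct
Scap, chr8:119184376-119184405, plus strand: cgccgctggaagCACGTGtggagggcggcg
Mylip, chr17:19514491-19514721, minus strand: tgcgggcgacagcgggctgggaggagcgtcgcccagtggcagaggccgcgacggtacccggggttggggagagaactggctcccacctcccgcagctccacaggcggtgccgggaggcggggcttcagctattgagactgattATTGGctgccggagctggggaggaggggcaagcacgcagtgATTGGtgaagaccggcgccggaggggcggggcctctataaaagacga
Both strands were searched. The Insig1 window held 1 CCAAT box, starting 193 bases before the start site, and 1 E-box, 79 bases before it. Srebf2 and Insig2 held 1 CCAAT box each, Mylip 2, and Scap 1 E-box. CCAAT was present in 37.5% and CACGTG in 6.42% of 33469 windows of the same length. The sterol regulatory element core TCACNCCAC (1.12% of windows) and the LXR repeat, a pair of AGGTCA sites with 4 bases between (0.00598%), had no match in the 5 windows. These matches describe letters only.

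Depth was even, from 52054644 to 75118153 total count units per library, and low counts pile up at multiples of 4. Levels are the deposited FPKM values (fragments scaled to transcript length and library size), and fold changes are from edgeR on the counts, where a call needs an adjusted p below 0.05 over all genes. The FPKM scale itself was shifted at d211: by limma on log2(FPKM + 1), the median of all genes was 0.17 higher in early weaned than control livers and 0.13 lower with than without leucine, against 0.02 and 0.00 in edgeR. FPKM differences at d211 are therefore larger in one direction than the edgeR values beside them. Wistar contrasts shifted as well. The limma median was −0.11 with age in early weaned livers and −0.06 for early weaning at d63, against −0.02 and −0.01 in edgeR. For early weaning at d23 it was 0.02 against −0.03, and with age in controls −0.03 against −0.04. All 9 hepatocyte markers were detected, with a summed level of 63050 to 122800 FPKM per library, and no matched marker of 6 liver cell types was at 0 in all libraries of a table. The third d23 control library stood apart from the other two. Its Insig1 level was 48.9 FPKM against 752 and 894, and its summed clock gene level was 125.3 against 376.1 and 294.4. Its summed hepatocyte marker level was 122800 against 83640 and 82900. For 12 SREBP-1c and insulin-responsive genes the sum was 1831 FPKM against 10970 and 8548. Igfbp1, a gene of that list, made up most of the sum in the other libraries, at 473.4 FPKM against 7721 and 5747. Acacb of the same list went the other way, at 1.29 against 0.54 and 0.32 FPKM.

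**Figure D1:**
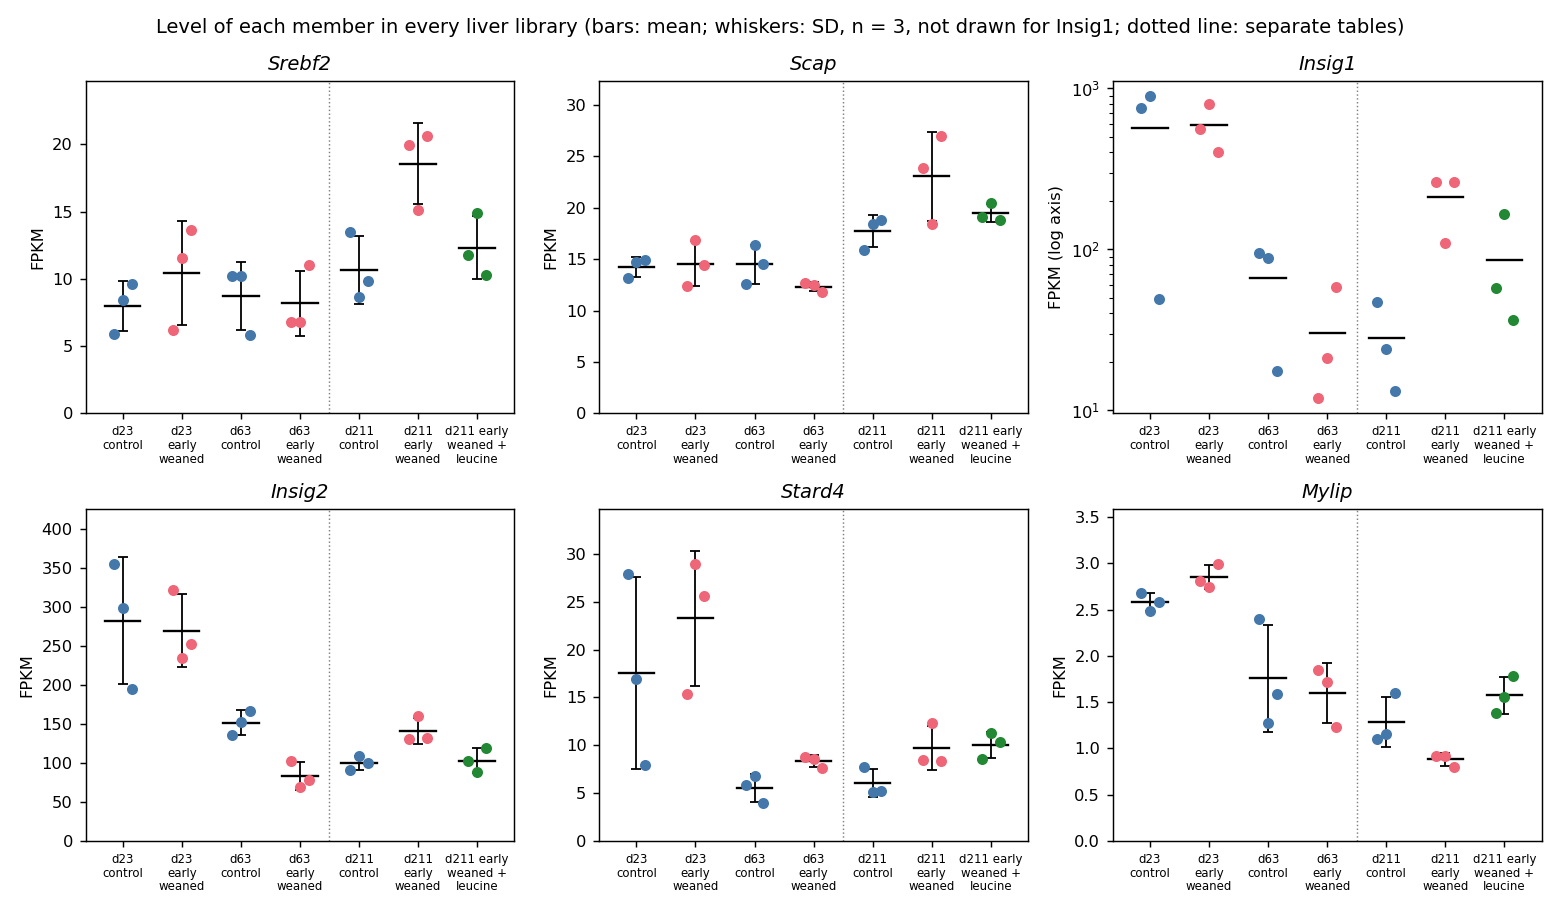
FPKM of each member (vertical axis, log scale for Insig1 only) in every library of the 7 groups (horizontal axis). Points are libraries, bars are means and whiskers are SD (n = 3; none for Insig1). Group means of Insig1, Insig2 and Stard4 are highest at d23, while Scap stays between 11.8 and 26.9 FPKM in all 21 libraries.

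Per length, the 2 INSIG genes had the highest group means of the members in every group and Mylip the lowest, although Insig1 was below Scap in 1 d63 early weaned library (11.9 against 12.7 FPKM) and 1 d211 control library (13.1 against 18.8). Group means ran from 28.2 to 588 FPKM for Insig1 and from 83.5 to 283 for Insig2. They ran from 12.3 to 23.1 FPKM for Scap, from 7.99 to 18.6 for Srebf2, from 5.54 to 23.3 for Stard4 and from 0.88 to 2.85 for Mylip. Within groups, the SD of Insig1 was 34.4% to 80.3% of the mean, and that of Scap at most 18.7%. Mylip's lowest count was 158 units, the fewest of any member in any library. In a bulk liver sample, fewer cells of a type and less RNA per cell cannot be told apart.

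Between d23 and d63 in Wistar livers, members that passed the test all fell, and Srebf2 and Scap did not pass. In early weaned rats Insig1, Insig2, Stard4 and Mylip fell, 4 of 6 members. In controls Insig2 and Stard4 fell, 2 of 6. The background was high: 27.0% of 15416 genes passed between ages in early weaned and 17.6% in control livers, and 13.5% and 9.61% passed in the downward direction. Groups did not overlap in FPKM for 4 members in early weaned livers, against 52.2% of genes, and for 3 in controls, against 32.4%. On library-scaled counts (TMM, edgeR's normalization) these were 4, against 52.2%, and 2, against 32.8%, since Mylip overlapped in controls.

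Insig1, the INSIG that SREBPs induce, was at 558, 804 and 402 FPKM in d23 early weaned livers and at 11.9, 21.3 and 58.1 at d63. Every d63 library was below every d23 library, and the fall was 4.15 on the log2 scale (SE 1.04, edgeR adjusted p = 0.0166). In controls it was at 752, 894 and 48.9 FPKM at d23 and at 94.6, 88.4 and 17.6 at d63. These groups overlapped through the third d23 library, and the log2 difference of −3.06 (SE 0.987) did not pass (edgeR adjusted p = 0.0540). It passed in DESeq2 (adjusted p = 0.0114) and in edgeR with counts divided by 4 (adjusted p = 0.0453). This made 3 of 6 members in each, against 27.1% of all genes in DESeq2 and 23.0% with counts divided by 4. Without the third d23 library the Insig1 difference was −3.60 (edgeR adjusted p = 0.00453), in a fit where 37.9% of all genes passed. The early weaned call ended without d63 replicate 1 (adjusted p = 0.0578) or 2 (adjusted p = 0.0665, edgeR).

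Insig2, the second INSIG, was at 355, 298 and 195 FPKM in d23 controls and at 136, 153 and 167 in d63 controls. It fell by 0.89 on the log2 scale (SE 0.233, edgeR adjusted p = 0.0278), with no overlap between the groups. In early weaned livers it was at 322, 234 and 252 FPKM at d23 and at 103, 69.3 and 78.1 at d63. That fall was larger in value, 1.57 on the log2 scale (SE 0.237, edgeR adjusted p = 0.00248), but the difference between both falls did not pass (−0.68, SE 0.328, edgeR adjusted p = 1.0). The early weaned call for Insig2 held without each library in turn. In controls it ended without either d23 replicate 1 or 2 or any d63 library (edgeR adjusted p from 0.0694 to 0.1125), and with only the 2 control groups in the fit (edgeR adjusted p = 0.110).

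Stard4, the cholesterol carrier, was at 27.9, 16.9 and 7.92 FPKM in d23 controls and at 5.90, 6.76 and 3.95 in d63 controls, and fell by 1.66 on the log2 scale (SE 0.408, edgeR adjusted p = 0.0230). In early weaned livers it was at 15.4, 28.9 and 25.6 FPKM at d23 and at 8.76, 8.62 and 7.68 at d63, a fall of 1.36 (SE 0.404, edgeR adjusted p = 0.0314). The age groups did not overlap in either case. The third d23 control was again the lowest of its group, and without it the control fall was 2.02 (edgeR adjusted p = 0.000892). Leaving out d23 control replicate 1 or 2 or d63 control replicate 1 or 3 ended the control call, as did leaving out d23 early weaned replicate 2 or 3 or any d63 early weaned library (edgeR adjusted p from 0.0613 to 0.0999). With only the 2 control groups in the fit, the control call ended too (edgeR adjusted p = 0.107).

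Mylip, the ligase that acts on the LDL receptor, was at 2.81, 2.74 and 2.99 FPKM in d23 early weaned livers and at 1.85, 1.72 and 1.23 at d63. The groups did not overlap, and it fell by 0.71 on the log2 scale (SE 0.234, edgeR adjusted p = 0.0452). This call was close to the threshold and ended without any 1 of the 6 libraries (edgeR adjusted p from 0.0701 to 0.1464). In controls it was at 2.68, 2.48 and 2.58 FPKM at d23 and 2.40, 1.28 and 1.59 at d63, with a log2 difference of −0.55 (SE 0.234, edgeR adjusted p = 0.1226).

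Srebf2, which encodes the factor, had log2 differences between ages of 0.15 in controls (SE 0.335, edgeR adjusted p = 0.789) and −0.23 in early weaned livers (SE 0.335, edgeR adjusted p = 0.640). It was at 5.93, 8.43 and 9.61 FPKM in d23 controls and at 10.2, 10.2 and 5.84 in d63 controls. Scap, the escort, had 0.03 (SE 0.148) and −0.12 (SE 0.148). For both genes the groups overlapped in controls. In early weaned livers Srebf2 and Scap overlapped too, at 6.17 to 13.7 against 6.78 to 11.0 FPKM for Srebf2 and 12.4 to 16.9 against 11.8 to 12.7 for Scap.

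The other genes of the sensor moved unevenly with age. Genes named here were chosen after their values were seen. Of all 15416 genes, edgeR called 1229 higher and 1481 lower with age in controls, and 2085 higher and 2076 lower in early weaned livers. Of 20 tested enzymes under SREBP-2 control, Hsd17b7, a sterol reductase, fell in controls (−1.66), and Hsd17b7 (−2.00) and Lss, lanosterol synthase (−1.86), fell in early weaned livers. The median over the list was −0.30 and −0.64, against −0.04 and −0.02 over all genes. Among 13 genes of sterol-regulated degradation, Erlin2 (−2.20 and −2.26) and the ubiquitin-conjugating enzyme Ube2g2 (−1.73 and −2.14) fell in controls and early weaned livers, and Sel1l, a part of the same ER machinery, rose (1.06 and 1.14).

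Genes linked to LXR, which also controls Mylip, mostly rose where they passed. In controls 3 of 11 rose, Srebf1 (1.41), Lpcat3 (0.57) and Smpdl3a (0.77). In early weaned livers 5 rose, Nr1h3, which encodes LXRα (1.56), Abca1 (0.47), Srebf1 (2.17), Lpcat3 (0.64) and Smpdl3a (0.79), and the paired sterol exporters Abcg5 (−1.07) and Abcg8 (−2.61) fell. Among 16 sterol carriers, the lysosomal exporter Npc1 rose (1.40 in controls, 1.94 in early weaned), as did Stard3 (0.70 and 0.60), and Soat1, which esterifies cholesterol, fell (−2.12 and −4.39). Stard5 (1.14) and Scp2 (1.09) rose in early weaned livers only by this test, and the difference between both age effects was not called for any member or for either of these (edgeR, 1 of 15416 genes, 0.00649%).

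Among 15 SREBP transport and processing genes, the coat subunit Sec24d rose in controls (0.83). In early weaned livers Sec24a rose (0.48), and Sec24b (−0.72) and the stress sensor Atf6 (−1.24) fell. Of 10 MYLIP partners and related receptors, Lrp1, a lipoprotein receptor, rose in early weaned livers (1.49). Of 18 tested clock genes, 2 rose and 5 fell in controls, and 4 rose and 5 fell in early weaned livers. Cry2 fell in both (−1.98 and −1.80). Of 12 SREBP-1c and insulin-responsive genes, 2 rose and 2 fell in controls, and 3 rose and 3 fell in early weaned livers. Igfbp1 fell (−5.86 and −7.39) and Acacb rose (2.52 and 3.19). Endothelial markers moved with age as well: 6 of 8 fell in early weaned and 2 of 8 in control livers, against 13.5% and 9.61% of all genes. Their summed level was 90.5 to 114.3 FPKM in d23 and 35.8 to 52.4 in d63 early weaned livers, and 92.6 to 99.8 against 51.8 to 81.3 in controls. Lymphocyte markers were at 1.74 to 2.76 FPKM at d23 and 5.15 to 12.93 at d63 in sum. Of 9 hepatocyte markers 4 rose and 3 fell in early weaned livers, and 1 rose and 3 fell in controls. Stellate markers summed to 119.0 to 129.3 FPKM in d23 and 64.4 to 77.7 in d63 early weaned livers. In controls they summed to 155.2 to 182.9 and 75.2 to 94.2 FPKM. The part of these lists and markers in the members' changes was not tested.

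**Figure D2:**
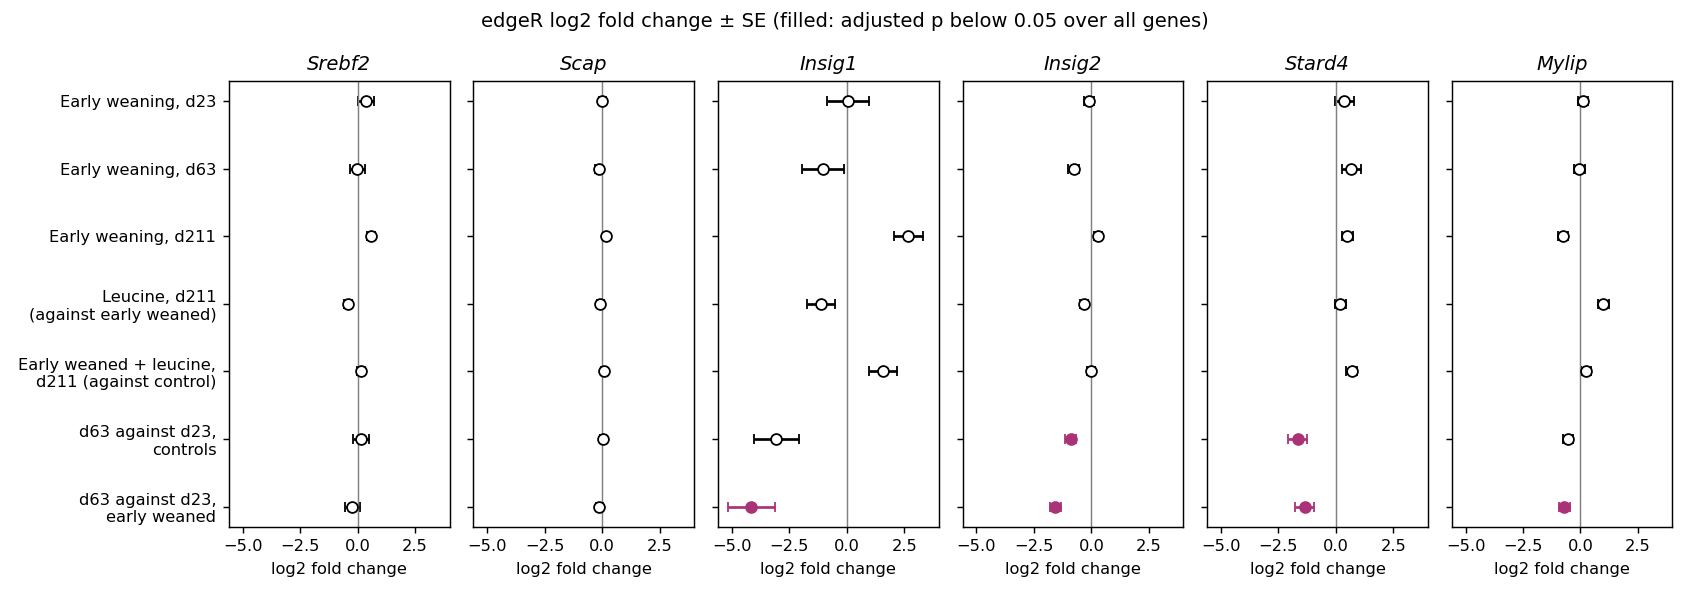
edgeR log2 fold change (horizontal axis) with its SE for 7 contrasts (vertical axis) and each member in a panel of its own. Filled points passed an adjusted p of 0.05 over all genes of the table; these are the falls with age, and none of the contrasts of weaning or leucine has a filled point.

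At d211, early weaned Sprague Dawley livers had more Insig1 and Srebf2 and less Mylip transcript than controls in value, but 0 of 6 members passed edgeR over all genes. The background was 0.719% of 15019 genes. At an unadjusted p below 0.05, 3 members (Srebf2, Insig1 and Mylip) passed, against 17.3% of all genes. DESeq2 called these 3, against 8.14% of genes, and limma on log2(FPKM + 1) called Insig1 alone, against 2.16%. Over all genes edgeR called 63 higher and 45 lower, and limma 218 and 48.

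Insig1 was at 47.3, 24.1 and 13.1 FPKM in controls and at 262, 109 and 262 in early weaned livers, so every early weaned library exceeded every control. The edgeR log2 difference was 2.68 (SE 0.624), 6.42-fold, with an adjusted p of 0.0766. DESeq2 gave 2.69 (adjusted p = 0.00521) and limma on log2(FPKM + 1) gave 2.93 (adjusted p = 0.0466). Leaving out the lowest early weaned library, replicate 2, gave 2.98 (edgeR adjusted p = 0.0440), and over the 6 fits that left out a library the value ran from 2.34 to 3.23. How many of all genes passed also changed widely between these fits, as the closing section gives.

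Srebf2 was at 13.5, 8.68 and 9.81 FPKM in controls and at 20.0, 15.1 and 20.6 in early weaned livers, again without overlap. Its log2 difference was 0.59 (SE 0.179, edgeR adjusted p = 0.137), with 0.59 by DESeq2 (adjusted p = 0.0412). Scap was at 15.9, 18.5 and 18.8 FPKM in controls and at 23.8, 18.4 and 26.9 in early weaned livers, which overlapped (0.16, SE 0.136, edgeR adjusted p = 0.627). The escort's difference was thus smaller in value than that of its cargo.

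Mylip was at 1.10, 1.16 and 1.60 FPKM in controls and at 0.92, 0.92 and 0.80 in early weaned livers. It was the only member lower in value, and all early weaned libraries were below all controls. Its log2 difference was −0.75 (SE 0.230, edgeR adjusted p = 0.137), with −0.75 by DESeq2 (adjusted p = 0.0479).

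Insig2 was at 91.1, 109 and 99.9 FPKM in controls and at 131, 160 and 132 in early weaned livers. Stard4 was at 7.77, 5.16 and 5.24 FPKM and at 8.47, 12.3 and 8.37. Neither overlapped in FPKM, but both did on library-scaled counts (TMM, edgeR's normalization). Their edgeR log2 differences were 0.29 (SE 0.175, adjusted p = 0.438) and 0.49 (SE 0.229, adjusted p = 0.308). In all, 5 of 6 members did not overlap in FPKM, against 25.0% of genes, and 3 of 6 did not on TMM-scaled counts, against 21.8%.

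All 20 tested SREBP-2 target enzymes were higher in value in early weaned livers, with a median of 1.28 against 0.02 over all genes. Pmvk, phosphomevalonate kinase, was the 1 that rose (1.62, SE 0.263, edgeR adjusted p = 0.0400). Their summed level was 685 to 1139 FPKM in controls and 1466 to 2406 in early weaned livers. Of 12 SREBP-1c and insulin-responsive genes 1 rose, Acacb, an acetyl-CoA carboxylase (1.76, SE 0.313, edgeR adjusted p = 0.0446), and the list median was 1.19. Of these 12 genes, 9 were higher and 3 lower in value, and their summed levels overlapped, at 959.7 to 1667 FPKM in controls and 930.4 to 1818 in early weaned livers.

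Of 15 transport and processing genes, Sar1b, the GTPase that starts the vesicle coat in which SCAP and its cargo leave the ER, fell by 0.80 on the log2 scale (SE 0.133, edgeR adjusted p = 0.0405). It was at 122 ± 11.7 FPKM in controls and 81.3 ± 7.13 in early weaned livers (SD, n = 3). The median of that list was −0.01. No gene of the lists for sterol-regulated ER degradation (13 tested), LXR (11), MYLIP partners (10) or sterol carriers (16) passed edgeR. The genes of smallest p were Tmub1 (−0.40, adjusted p = 0.210) and Sel1l (−0.52, 0.223) for degradation, and Acbd3 (0.58, 0.0753) and Stard10 (−0.38, 0.140) for carriers.

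Clock genes moved with these groups. Of 19 tested, Hlf (−2.19), Clock (−2.52) and Tef (−1.72) fell and Npas2 (2.40) rose in edgeR, and their summed level was 242.8 to 344.2 FPKM in controls and 131.4 to 186.3 in early weaned livers. Their part in the members' differences was not tested. Cholangiocyte markers summed to 8.67 to 13.8 FPKM in controls and 16.3 to 30.9 in early weaned livers, with 0 of 7 tested passing and 0 of 8 at 0. Hepatocyte markers overlapped, at 72450 to 78890 and 71820 to 77920 FPKM.

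Among the MYLIP partner and LXR genes of smallest p at d211, Usp2 and Abcg5 were lowest in early weaned livers in value, as Mylip was. Usp2, a deubiquitinase known to act on MYLIP and a rhythmic gene in liver, was at 4.53, 5.67 and 6.51 FPKM in d211 controls, 2.32, 0.61 and 1.94 in early weaned livers, and 4.77, 5.70 and 8.22 with leucine. Early weaned libraries lay below both other groups without overlap, with log2 differences of −2.02 from controls (SE 0.407, edgeR adjusted p = 0.0585) and of 2.12 with leucine (SE 0.408, edgeR adjusted p = 0.0589). Abcg5, the LXR-driven sterol exporter subunit, was at 5.61, 5.46 and 10.7 FPKM in controls, 0.27, 1.04 and 0.32 in early weaned livers, and 2.46, 2.66 and 11.3 with leucine. It too stood apart in the early weaned group, at −3.90 (SE 0.778, edgeR adjusted p = 0.0584) and 3.44 (SE 0.764, edgeR adjusted p = 0.0806). Neither gene passed. Lpcat3, a phospholipid enzyme under LXR, went the other way in value, at 30.2 ± 2.77 FPKM in controls and 51.5 ± 5.76 in early weaned livers (SD, n = 3; 0.55, SE 0.137, edgeR adjusted p = 0.0852). Lrp8, a receptor that MYLIP also acts on, was nearly undetected, at 0.34 FPKM or less in all libraries.

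**Figure D3:**
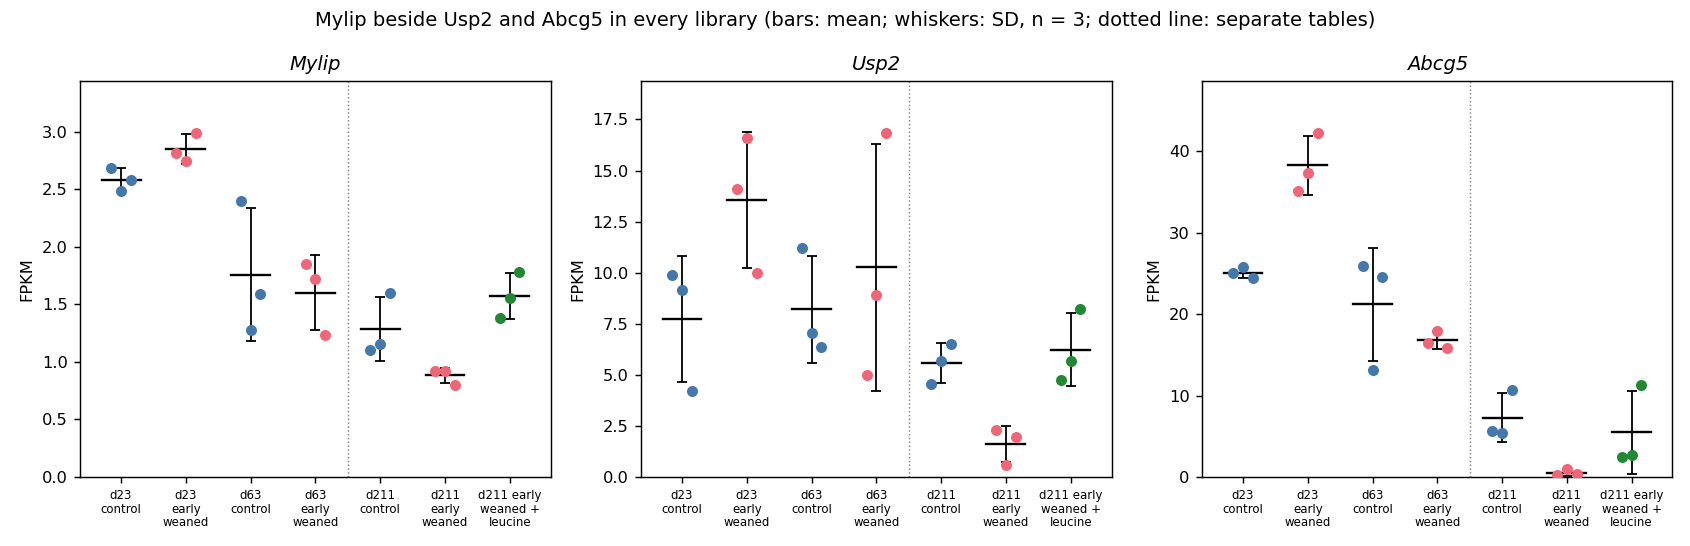
FPKM (vertical axis) of Mylip, Usp2 and Abcg5 in every library of the 7 groups. Points are libraries, bars means and whiskers SD (n = 3). At d211 the 3 early weaned libraries lie below all controls and all leucine libraries in each panel. Usp2 and Abcg5 were chosen for their small p at d211. In the Wistar groups left of the dotted line the panels differ.

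With leucine, early weaned livers had more Mylip transcript in value than those without it, and 0 of 6 members passed edgeR. The background was 0.36% of 15019 genes, 27 higher and 27 lower, whereas limma on log2(FPKM + 1) called 44 and 94. At an unadjusted p below 0.05, 2 members (Srebf2 and Mylip) passed, against 13.1% of genes. DESeq2 called Mylip alone, against 5.28% of genes, and limma called 0. This contrast and the one above share the 3 early weaned libraries, so opposite signs between them are not independent.

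Mylip was at 1.39, 1.56 and 1.78 FPKM with leucine, above all 3 early weaned libraries without it (0.92, 0.92 and 0.80). The edgeR log2 difference was 0.99 (SE 0.231, adjusted p = 0.0870), and DESeq2 gave 0.99 (adjusted p = 0.00527). Over the 6 fits that left out a library it ran from 0.88 to 1.07. Against controls, the leucine group's Mylip difference was 0.23 (SE 0.228, edgeR adjusted p = 0.764), with overlap.

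Insig1 was uneven with leucine, at 57.2, 165 and 36.3 FPKM, and the second leucine library lay within the range of the livers without leucine. Its log2 difference was −1.12 (SE 0.593, edgeR adjusted p = 0.487), and −1.98 without that library (edgeR adjusted p = 0.218). Against controls it was 1.56 (SE 0.600, edgeR adjusted p = 0.428), and 0.70 without the same library. The same second library had the highest summed level of SREBP-2 target enzymes in its group, at 1543 FPKM against 969 and 1086.

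Srebf2 was at 11.8, 14.9 and 10.3 FPKM with leucine, below the 3 libraries without it at 15.1 to 20.6 (−0.43, SE 0.179, edgeR adjusted p = 0.345). Insig2 was at 102, 88.0 and 120 FPKM, also below (−0.31, SE 0.175, edgeR adjusted p = 0.526). With Mylip, 3 of 6 members did not overlap in FPKM, against 22.9% of genes. On TMM-scaled counts Srebf2 and Insig2 overlapped, leaving Mylip as the 1 of 6 members whose groups did not, against 20.1% of genes. Scap had −0.08 (SE 0.136, edgeR adjusted p = 0.897).

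Stard4 was at 8.61, 11.3 and 10.3 FPKM with leucine, in the range of early weaned livers without it (0.19, SE 0.228, edgeR adjusted p = 0.829). All 3 leucine libraries were above all controls (0.68, SE 0.229, edgeR adjusted p = 0.389). It was the 1 member of 6 without overlap between the leucine and control groups, against 16.3% of genes. In that contrast 0 members passed edgeR, DESeq2 or limma, 2 (Insig1 and Stard4) had an unadjusted p below 0.05 against 10.8% of genes, and edgeR called 0.0133% of genes.

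Of 20 SREBP-2 target enzymes 17 were lower with leucine than without, with a median of −0.69 against −0.00 over all genes, and 0 passed edgeR. Pmvk had −0.83 and Mvk, mevalonate kinase, −0.81 (edgeR adjusted p = 0.183 for both). The lysosomal sterol exporter Npc1 had 1.00 (SE 0.175, edgeR adjusted p = 0.0545), at 24.3 ± 3.14 FPKM with leucine and 13.5 ± 1.53 without (SD, n = 3). Scp2 had 0.61 (adjusted p = 0.138), Sar1b 0.54 (0.107), Sec24b −0.47 (0.157), Derl1 0.32 (0.220) and Sel1l 0.46 (0.369) in edgeR. Lrp8 had −2.55 (0.447). Thrsp and Igfbp1, both insulin-responsive, had 2.04 (0.0867) and −2.06 (0.108), and Abca1 had 0.49 (0.173). Clock genes moved here too: Hlf (2.32), Cry2 (1.58) and Tef (1.51) rose, 3 of 19, and the summed clock gene level was 257.8 to 415.5 FPKM with leucine. Endothelial and Kupffer cell markers were higher in value in 8 of 8 and 8 of 8 cases, with 0 passing edgeR. Their summed levels overlapped, at 56.9 to 64.9 against 41.0 to 63.4 FPKM and at 174 to 256 against 142 to 272. The part of these markers in the members' differences was not tested.

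At d23, 5 of 6 members overlapped between early weaned and control livers. Of 6 members 0 passed edgeR, against 0.013% of 15416 genes, 0 had an unadjusted p below 0.05 against 6.2% of genes, and DESeq2 and limma called 0. Log2 differences ran from −0.10 for Insig2 to 0.37 for Stard4 (SE 0.397), and Insig1 had 0.04 (SE 0.912). Without the third d23 control, Insig1 had −0.50 (SE 0.730). Mylip was the 1 member whose libraries did not overlap in FPKM, against 8.3% of genes, at 2.74 to 2.99 in early weaned and 2.48 to 2.68 in control livers (0.11, SE 0.233).

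At d63, Insig2 was lower in value in early weaned livers, at 103, 69.3 and 78.1 FPKM against 136, 153 and 167 in controls. No library overlapped, and the log2 difference of −0.78 (SE 0.233) had an unadjusted p of 0.00674 but did not pass (edgeR adjusted p = 0.679). Stard4 was higher in value without overlap, at 7.68 to 8.76 against 3.95 to 6.76 FPKM (0.68, SE 0.400, edgeR adjusted p = 0.883). These 2 of 6 compare with 18.6% of genes whose groups did not overlap. Insig1 had −1.05 (SE 0.922), and Srebf2, Scap and Mylip had −0.01, −0.15 and −0.05. At d63, 0 members passed edgeR, DESeq2 or limma, 1 had an unadjusted p below 0.05 against 6.05% of genes, and edgeR called 0.0% of genes. Beside Insig2, all 8 endothelial, all 8 Kupffer cell and all 9 lymphocyte markers were lower in value in these early weaned livers, with 0 passing edgeR. Endothelial markers summed to 35.8 to 52.4 FPKM against 51.8 to 81.3 in controls, and lymphocyte markers to 5.15 to 7.55 against 5.58 to 12.9. Their part was not tested.

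The balance of both INSIG transcripts was taken within each library, where no scaling between libraries enters. With 3 libraries against 3, its exact permutation test cannot give a p below 0.1, so no contrast could pass. In FPKM, Insig2 exceeded Insig1 in all d63 livers and d211 controls, with ratios from 1.35 to 9.51 at d63 and of 1.93, 4.51 and 7.61 in d211 controls. Which INSIG is higher rests on the length scaling of FPKM. In count units Insig1 was the higher in some of these livers, such as d63 control replicate 1 (15686 against 9223) and d211 control replicate 1 (6138 against 4842). It was the lower in others, such as d63 control replicate 3 (2891 against 11251). In d211 early weaned livers the ratios were 0.50, 1.47 and 0.51, below all controls. With leucine they were 1.78, 0.53 and 3.30. At d23 Insig1 exceeded Insig2 in 5 of 6 livers, with ratios of 0.29 to 0.63, and the third d23 control had 3.98.

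The mean log2 ratio was 2.01 ± 1.00 in d211 controls and −0.48 ± 0.889 in early weaned livers (SD, n = 3), a difference of −2.49 with an exact two-sided permutation p of 0.1, the smallest that 3 against 3 allows (0.35 adjusted over 7 contrasts). Between ages in early weaned livers it differed by 2.83 (exact permutation p = 0.1, adjusted 0.35), also without overlap. The other 5 contrasts overlapped, with exact permutation p from 0.2 to 1.0.

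**Figure D4:**
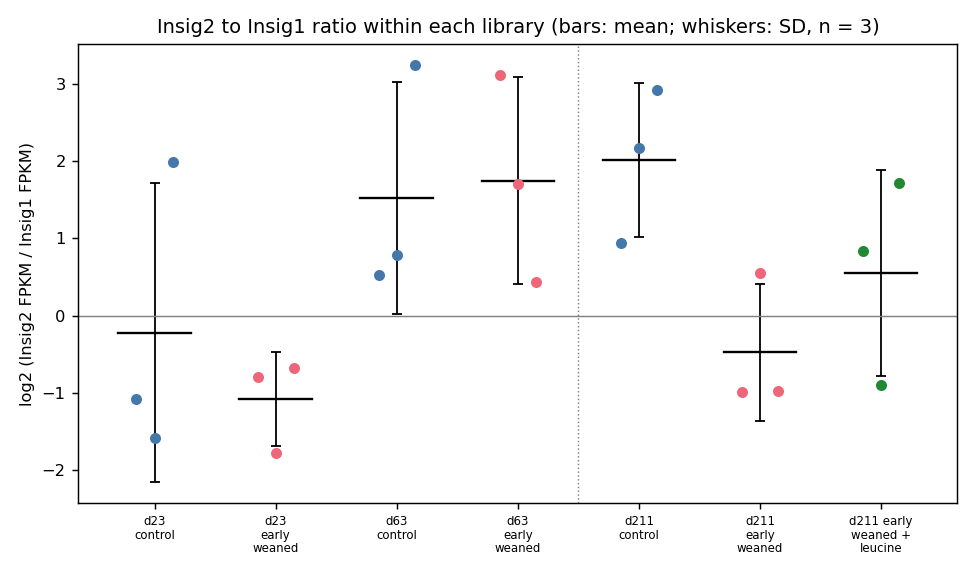
Log2 of the Insig2 to Insig1 ratio of FPKM values (vertical axis; 0 marks equal levels) in each library of the 7 groups. Points are libraries, bars means and whiskers SD (n = 3). The 3 d211 early weaned libraries, at −0.99, 0.55 and −0.98, lie below the d211 controls at 0.95, 2.17 and 2.93.

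Ordered by mean FPKM within a table, most neighbouring groups overlapped in FPKM. For Srebf2, no Wistar neighbours were apart, and at d211 early weaned livers were above the leucine group and controls, which overlapped. On TMM-scaled counts the early weaned and leucine groups overlapped for Srebf2. For Insig1, no neighbours were apart in either table. Insig2 ran from both d23 groups, which overlapped, down to d63 controls and then d63 early weaned livers, each step without overlap. Mylip ran from d23 early weaned to d23 control to d63 control livers without overlap in FPKM. On TMM-scaled counts d23 and d63 controls overlapped for Mylip. Its d63 groups overlapped, and at d211 early weaned livers were below controls. Stard4 was apart between d63 early weaned and d63 control livers and between d211 early weaned and d211 control livers. On TMM-scaled counts these d211 groups overlapped for Stard4. Scap was apart only between d23 control and d63 early weaned livers.

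Genes whose pattern was most like each member were found by Pearson's r of log2(FPKM + 1), taking for each gene the smaller of r over 12 Wistar and r over 9 Sprague Dawley libraries, among 10388 genes. Libraries share group and scale, so these values describe likeness only. Insig1 was most like Bicd2 (r = 0.947 and 0.955), Sesn1 (0.962 and 0.946), RGD1305807 (0.919 and 0.978) and the cholesterol synthesis gene Fdps (0.908 and 0.971). Srebf2 was most like Aacs, acetoacetyl-CoA synthetase (0.905 and 0.903), Inppl1 (0.863 and 0.930) and Msmo1, a sterol oxidase of cholesterol synthesis (0.839 and 0.935).

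Stard4 was most like Zdhhc17 (0.938 and 0.880), Pdzd8 (0.907 and 0.879), Ccdc186 (0.932 and 0.872) and the insulin receptor gene Insr (0.916 and 0.870). Mylip was most like Cbs (0.808 and 0.826), Abcg5 (0.871 and 0.803) and Got1 (0.792 and 0.775). Cbs and Got1 encode enzymes of amino acid metabolism. Insig2 was most like Net1 (0.891 and 0.896), Srf (0.923 and 0.861), Pitpnm2 (0.850 and 0.925) and Nedd1 (0.828 and 0.832). Scap had no gene as close: Rbms2 led with 0.761 and 0.791, before Ctps2 (0.728 and 0.937), Cttn (0.707 and 0.727) and Tjap1 (0.758 and 0.703).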

How the data were processed

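RNA was taken up with a column kit and libraries were built with a SMARTER mRNA kit, per the labels' protocols. Aligner, counter and use of strand: not given in the sources used here, so reads of overlapping antisense genes cannot be told apart. Builds in the submitters' processing notes are mouse ones (GRCm38, mm10), although identifiers are rat. For every gene the deposited tables list a whole, unnormalized count, and beside it an FPKM, which the authors scaled to length and library size, per the file headers.

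Each table was fitted alone with edgeR 4.0.16 in R 4.3.3 (TMM, filterByExpr at a minimum count of 10, a mean per group, quasi-likelihood test, Benjamini-Hochberg adjusted p below 0.05). This left 15416 Wistar and 15019 Sprague Dawley genes, all 6 members among them. DESeq2 1.42.0 and limma 3.58.1 (mean FPKM of at least 0.5) served as alternatives. The edgeR fit was tested on simulated data. Ratios were tested by exact permutation in scipy 1.17.1. Of 173 genes in 8 pathway and 6 marker lists, 167 were matched by symbol. Members and lists were chosen with earlier results of these data known. Named genes are the members, listed genes that passed at d211 or, in a list where none did, the 2 of smallest p, and the 4 genes most like each member; 2 genes that this takes are not reported here. Listed genes named with age fall outside this rule and were chosen because they passed there.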

Additional observations from a re-analysis of the deposited data

Results flagged for a closer look

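In 2 cases every early weaned library lay on one side of its controls in FPKM at one age and on the other side at another age. The share of all genes with such a switch is not given here, so these cases have no background to be read against. At single ages, groups did not overlap in FPKM for 8.3% of genes at d23, 18.6% at d63 and 25.0% at d211. The differences were not tested, since strain and table change with age. Insig2 was lower at d63 (log2 difference −0.78) and higher at d211 (0.29), a gap of 1.07; on TMM-scaled counts the d211 groups overlapped. Mylip was higher at d23 (0.11) and lower at d211 (−0.75), a gap of −0.865. None of these values passed edgeR over all genes.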

How the results depend on the processing

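Without single libraries, the members called ran from 0 to 1 in d211 early weaning, 0 to 3 with age in controls and 1 to 3 with age in early weaned livers, against 0, 2 and 4. At d211, DESeq2 called 3 members for early weaning and 1 for leucine, and limma 1 for early weaning at a pseudocount of 1 or 0.1. With only the groups compared, age in controls called 0. Over all genes, early weaning at d211 called 108 in edgeR, 1147 in DESeq2, 266 and 241 in limma, 188 with counts divided by 4, 31 with only the groups compared, and 2 to 534 without a library. Leucine called 54, then 791, 138 (limma, pseudocount 1), 154 and 32, 113 without the low count filter, and 1 to 539 without a library. Age in controls called 2710, 4158 in DESeq2 and 281 with only the groups compared. The cause of these shifts was not tested.

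Directions that reversed were all of values that did not pass. Scap at d23 had −0.000894 with counts divided by 4 and −0.00463 with a replicate block. Insig2 with leucine against control had 0.0393 and 0.0396 in limma and 0.000939 with the block. Without single libraries, d23 early weaning ran from −0.133 to 0.113 for Scap, −0.501 to 0.501 for Insig1 and −0.310 to 0.121 for Insig2. At d63 Srebf2 ran from −0.291 to 0.130 and Mylip from −0.234 to 0.256. Scap ran from −0.183 to 0.0135 with leucine, −0.0233 to 0.137 for leucine against control, −0.0669 to 0.115 with age in controls and −0.228 to 0.0185 with age in early weaned livers. Insig2 with leucine against control ran from −0.138 to 0.0989, and Srebf2 with age in controls from −0.0156 to 0.390. In the weaning by age term, Mylip ran from −0.346 to 0.144 and Stard4 from −0.229 to 0.657. The log2 INSIG ratio difference ran from −1.54 to 0.251 at d23 and −0.453 to 1.09 at d63.

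Libraries share replicate numbers across groups, but no label ties them, and same-numbered libraries correlated by −0.108 to 0.127 in their deviations. A replicate block called the same number of members in every contrast (2 and 4 for age, 0 otherwise) and 49 genes for early weaning at d211. Without the low count filter, Mylip lost its fall with age in early weaned livers (edgeR adjusted p = 0.0597).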
